A study of Mus musculus with 6 samples.

Results

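Keratins and biliary epithelial genes were followed in liver RNA through 7 genes chosen by symbol, Krt8, Krt18, Krt7, Krt19, Krt23, Epcam and Sox9, out of 22851 genes with a deposited value. All 6 libraries came from livers of male C57BL/6J mice, an inbred strain, on a high-fat diet, so no liver on an ordinary diet enters. In the treated group the mice received ONX-0914, an inhibitor of the immunoproteasome subunit PSMB8, injected under the skin at 10 mg/kg on alternate days over 6 weeks, and in the other group they received vehicle. Each group has 3 libraries, ONX-0914 1, 3 and 4 and vehicle 1, 2 and 4. The design text counts 2 biological replicates a group, so it is unknown whether all libraries come from separate mice, and p-values measure the spread between libraries. Because the 7 genes were proposed with this contrast in view, their own fold changes are given as a description with no test, and where one of them falls in a count over a longer list that is said.

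Keratins are the intermediate filament proteins of epithelia, and each filament is built from a type I and a type II chain in equal amounts. Hepatocytes make a single pair, keratin 8 (type II, Krt8) and keratin 18 (type I, Krt18), whereas bile duct cells make that pair together with keratin 7 and keratin 19. In the liver, Epcam and Sox9 are used as markers of bile duct and progenitor cells. The hepatocyte pair is known to increase in liver injury, and in Mallory-Denk bodies it aggregates with ubiquitin and p62.

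The pair that hepatocytes make was higher with ONX-0914, and Krt7, Krt19, Krt23 and Epcam differed less. Krt8 and Krt18 stood in all 3 ONX-0914 libraries above all 3 vehicle libraries, with ratios of the group means of 2.87 and 2.77. Krt7, Krt19 and Krt23 were close to or below 2 FPKM in every library with overlapping groups, and Epcam was slightly lower with ONX-0914. Sox9 was lower with ONX-0914 in the values as deposited, with a ratio of the group means of 0.393 at levels below 2 FPKM. The directions of these biliary genes depend on the processing: after median ratio scaling, described below, Krt19, Krt23 and Epcam were higher with ONX-0914, by less than Krt8 and Krt18, and Sox9 was lower by less. FPKM are values per kilobase of transcript and per unit of sequencing depth. Levels can be set side by side between genes within a library, while differences between libraries also depend on the scaling and on transcript length.

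Krt8 lies on chromosome 15 of GRCm38 at chr15:101996698-102004482 on the minus strand, and Krt18 at chr15:102028180-102032027 on the plus strand, with 23697 bases between them. Both genes have their 5′ ends toward the gap, so they are divergent neighbours. Because the pair moved together, the sequences around their RefSeq start sites (GRCm38.p6, 250 bases before the start and 50 from it on, 5′ to 3′ on the strand of the gene) are shown, Krt8 from chr15:102004293-102004592 (minus strand) and Krt18 from chr15:102027966-102028265 (plus strand), with motif matches in capitals.
Krt8: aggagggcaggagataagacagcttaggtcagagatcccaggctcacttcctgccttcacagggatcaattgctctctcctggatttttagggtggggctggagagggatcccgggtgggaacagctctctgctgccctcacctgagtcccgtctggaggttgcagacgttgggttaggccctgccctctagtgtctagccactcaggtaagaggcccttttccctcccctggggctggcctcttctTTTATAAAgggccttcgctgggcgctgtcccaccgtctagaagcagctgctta
Krt18: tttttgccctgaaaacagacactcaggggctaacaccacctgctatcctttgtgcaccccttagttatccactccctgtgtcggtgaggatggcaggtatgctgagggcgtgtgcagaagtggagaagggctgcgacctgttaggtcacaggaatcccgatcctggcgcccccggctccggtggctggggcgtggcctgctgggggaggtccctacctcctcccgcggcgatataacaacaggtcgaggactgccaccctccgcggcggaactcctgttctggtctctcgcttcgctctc
The capitals in Krt8 mark TATAAA, the letters of the TATA box motif, which matched on both strands in overlapping positions. Whether this match acts as a TATA box was not tested. The RefSeq start lies within this match, and the RefSeq start is not the 5′ end of the GENCODE gene given above. Of 32851 promoter windows of this length, 13.6% hold TATAAA on either strand. Matches were also sought on both strands for the AP-1 motif TGANTCA, which 7.8% of windows hold, and for the GC box GGGCGG, which 35.7% hold. Other letters sought were CCAAT, a common promoter box, held by 37.4% of windows, and TTCNNNGAA, a STAT motif, held by 8.3%. The heat shock element GAANNTTC occurs in 7.9% and the antioxidant response element TGACNNNGC in 12.4% of windows. None of these letters occurs in the Krt8 window, and none of the 7 motifs occurs in the Krt18 window. G and C made up 58.0% of the Krt8 window and 61.3% of the Krt18 window. Windows were at hand for 5 of the 7 genes. Among the other 3, Krt7 held 4 GC boxes, Epcam held 1 and Krt23 held no match.

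Krt8, the type II chain of the hepatocyte pair, had 427, 214 and 347 FPKM in ONX-0914 1, 3 and 4, against 130, 119 and 95.0 FPKM in vehicle 1, 2 and 4. The groups do not overlap, and ONX-0914 3 was the lowest of the treated libraries. The means were 330 ± 108 FPKM with ONX-0914 and 115 ± 17.9 FPKM with vehicle (SD, n = 3 each), a log2 fold change of 1.47 (SE 0.27) on the log2(FPKM + 1) scale. Krt18, the type I chain, had 528, 240 and 261 FPKM in ONX-0914 1, 3 and 4, against 139, 126 and 106 FPKM in vehicle 1, 2 and 4. These groups do not overlap either, and here ONX-0914 1 stood well above the other treated libraries. The Krt18 means were 343 ± 161 FPKM with ONX-0914 and 124 ± 16.7 FPKM with vehicle (SD, n = 3 each), a log2 fold change of 1.38 (SE 0.30).

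By the size of the log2 fold change, Krt8 was 52nd and Krt18 was 63rd of the 10743 genes that had more than 1 FPKM in at least 3 libraries. Among those genes 4.93% had all ONX-0914 libraries above all vehicle libraries, as these 2 genes do. That share is background only, since the genes were chosen for this contrast.

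**Figure D1:**
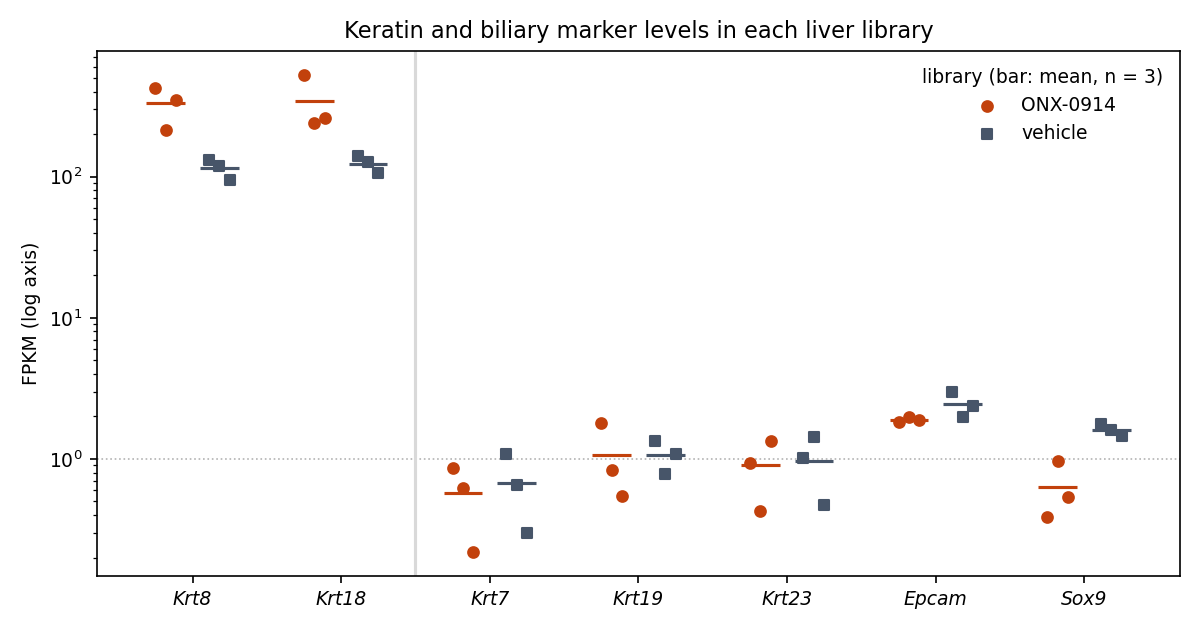
FPKM of the 7 genes in each library on a log axis, ONX-0914 libraries as circles left of vehicle libraries as squares, with a bar at each group mean and a dotted line at 1 FPKM. Krt8 and Krt18 sit between 214 and 528 FPKM with ONX-0914 and between 95.0 and 139 FPKM with vehicle, while the biliary genes stay below 3 FPKM in every library.

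The level of Krt8 in FPKM stayed within 0.809 to 1.33 times that of Krt18. The ratio of Krt8 to Krt18 in single libraries was 0.809, 0.893 and 1.33 for ONX-0914 1, 3 and 4, against 0.934, 0.944 and 0.896 for vehicle 1, 2 and 4. The treated libraries lie on both sides of the vehicle libraries, and ONX-0914 4 is the library with more Krt8 than Krt18. The mean ratio was 1.01 ± 0.281 with ONX-0914 and 0.925 ± 0.0256 with vehicle (SD, n = 3 each). The vehicle ratios thus spread far less than the treated ones, and the group difference of 0.0869 is smaller than the treated SD.

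One treated library, ONX-0914 3, lay closer to vehicle in this pair, as it did across the table. Its log2 difference from the vehicle mean was 0.91 for Krt8 and 0.96 for Krt18. The same differences were 1.90 and 2.09 for ONX-0914 1, and 1.60 and 1.08 for ONX-0914 4. The median tested gene differed from the vehicle mean by -0.38 in ONX-0914 3, by -0.74 in ONX-0914 1 and by -0.79 in ONX-0914 4. Without ONX-0914 3 the log2 fold changes over the group were 1.75 for Krt8 and 1.59 for Krt18.

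Among the biliary keratins, Krt7, the type II chain of bile ducts, had 0.87, 0.62 and 0.22 FPKM in ONX-0914 1, 3 and 4, against 1.08, 0.65 and 0.30 FPKM in vehicle 1, 2 and 4. Its groups overlap, and with 1 library above 1 FPKM it did not pass the filter on low values. Krt19, the type I chain of bile ducts, had 1.81, 0.84 and 0.55 FPKM in ONX-0914 1, 3 and 4, against 1.34, 0.78 and 1.08 FPKM in vehicle 1, 2 and 4. Both its highest and its lowest value were in treated libraries. Its means were 1.07 ± 0.660 FPKM with ONX-0914 and 1.07 ± 0.280 FPKM with vehicle (SD, n = 3 each), a log2 fold change of -0.04 (SE 0.25).

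Krt23, a type I keratin found at low levels in liver, had 0.94, 0.43 and 1.35 FPKM in ONX-0914 1, 3 and 4, against 1.01, 1.44 and 0.47 FPKM in vehicle 1, 2 and 4. The groups cover almost the same range. Its log2 fold change was -0.05 (SE 0.26). At the depth estimated from the smallest steps between values, Krt23 rests on about 9 to 27 reads in a treated library and 12 to 42 reads in a vehicle library, so counting error is large in each of its values.

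Epcam, a cell adhesion protein of bile duct epithelium, had 1.82, 1.97 and 1.88 FPKM in ONX-0914 1, 3 and 4, against 2.99, 1.99 and 2.39 FPKM in vehicle 1, 2 and 4. All treated libraries lie below all vehicle libraries, but ONX-0914 3 and vehicle 2 differ by only the last digit. The means were 1.89 ± 0.0755 FPKM with ONX-0914 and 2.46 ± 0.503 FPKM with vehicle (SD, n = 3 each), a log2 fold change of -0.25 (SE 0.22). Across all tested genes, 53.5% had every ONX-0914 library below every vehicle library.

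Sox9, a transcription factor of bile duct and progenitor cells, had 0.39, 0.97 and 0.54 FPKM in ONX-0914 1, 3 and 4, against 1.77, 1.61 and 1.45 FPKM in vehicle 1, 2 and 4. The groups do not overlap, and the treated library nearest to vehicle was ONX-0914 3. The means were 0.633 ± 0.301 FPKM with ONX-0914 and 1.61 ± 0.160 FPKM with vehicle (SD, n = 3 each), a log2 fold change of -0.69 (SE 0.20). Sox9 passed the filter only through the 3 vehicle libraries, so among tested genes it had to be lower with ONX-0914. Its log2 fold change was -0.31 after scaling by median ratio, which divides each library by its median ratio to the geometric mean, and 0.19 with the transcript-length trend of each library removed. Its direction thus turned with the length trend removed.

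Of the 5 biliary genes, 4 passed the filter, 1 of them, Sox9, only through vehicle. The median tested gene had a log2 fold change of -0.64 as deposited, so Krt19, Krt23 and Epcam lay above that median while their own values were near 0 or below it. Scaling by median ratio moves the median to -0.01, and Krt19, Krt23 and Epcam then had log2 fold changes of 0.37, 0.35 and 0.30. The direction of these 3 genes therefore depends on the scaling. Krt8 and Krt18 had log2 fold changes of 2.27 and 2.17 on that scale.

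**Figure D2:**
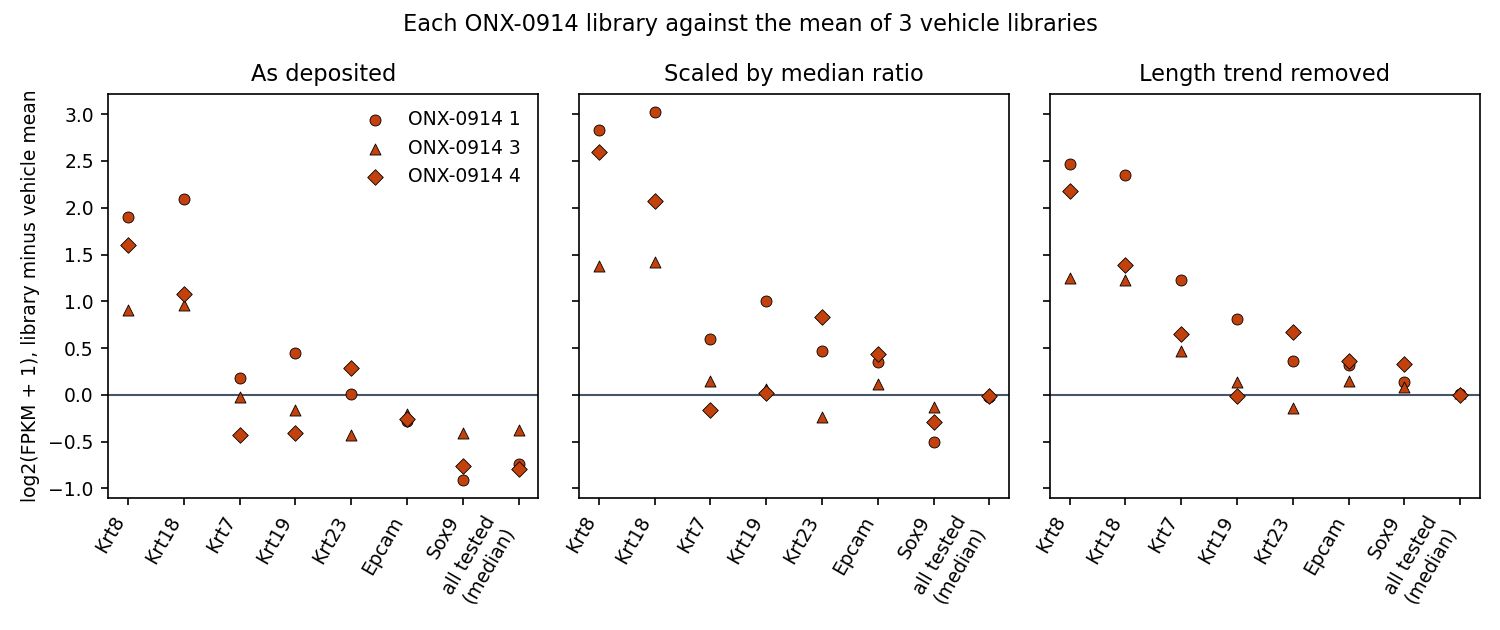
Log2 difference of each ONX-0914 library from the vehicle mean for the 7 genes and for the median tested gene, in 3 panels: values as deposited, values after median ratio scaling, and values without the length trend. Krt8 and Krt18 lie above 0 in every treated library in all 3 versions, while Sox9 lies below 0 in every treated library as deposited and at 0.19 on average with the length trend removed.

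The contrast between the hepatocyte pair and the biliary genes was also taken within each library, where the ratio of 2 sums does not depend on a scaling factor. The summed Krt8 and Krt18 level was 955, 454 and 608 FPKM in ONX-0914 1, 3 and 4, against 269, 245 and 201 FPKM in vehicle 1, 2 and 4. The summed level of the 5 biliary genes was 5.83, 4.83 and 4.54 FPKM in ONX-0914 1, 3 and 4, against 8.19, 6.47 and 5.69 FPKM in vehicle 1, 2 and 4. The biliary sums overlap between the groups through ONX-0914 1 and vehicle 4. The pair was 164, 93.9 and 134 times the biliary sum in ONX-0914 1, 3 and 4, against 32.9, 37.9 and 35.3 times in vehicle 1, 2 and 4. On the log2(FPKM + 1) scale the mean of the pair exceeded the mean of the biliary genes by 7.37 ± 0.46 with ONX-0914 and by 5.72 ± 0.07 with vehicle (SD, n = 3 each), a difference of 1.65. The treated and vehicle ranges of this contrast do not overlap. Unlike the ratio of sums, the difference of 1.65 depends on the scaling, because 1 is added to each value. It was 2.04 with median ratio scaling and 1.44 with the length trend removed.

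The order of the 7 levels shared its top in every library. Krt8 and Krt18 took the first places and Epcam the third in all 6. Krt18 was the higher of the pair in 5 libraries and Krt8 in ONX-0914 4. Sox9 came next in all 3 vehicle libraries and in ONX-0914 3, but was the lowest of the 7 in ONX-0914 1 and the second lowest in ONX-0914 4. The levels of Krt7, Krt19, Krt23 and Sox9 overlap each other in the treated libraries, so their order there does not exceed their spread.

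The table lists 54 keratin genes, of which 41 were at 0 in all 6 libraries. A further 7 were detected without reaching 1 FPKM, the highest of them Krt80 at 0.49. The remaining 6 with a value above 1 FPKM are the 5 keratins above and Krt10, a type I keratin of skin. Krt10 had 1.76, 1.04 and 1.36 FPKM in ONX-0914 1, 3 and 4, against 2.21, 1.42 and 1.52 FPKM in vehicle 1, 2 and 4. Its groups overlap and it was not called (log2 fold change -0.19 ± 0.22 SE in limma, adjusted p = 0.505). Krt8 and Krt18 made up 99.3% to 99.4% of all keratin FPKM in ONX-0914 libraries and 97.8% to 98.2% in vehicle libraries. A processed Krt8 pseudogene is annotated in GENCODE and is not a row of the table, and the sources used here do not say how reads that match it were counted.

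In whole-liver RNA, fewer cells of a type and less RNA per cell cannot be told apart. Levels of other cell types' markers moved with the contrast. Genes outside the 7 were called at an adjusted p under 0.05 in a limma fit over all 10743 tested genes, of which 2.56% were called higher and 43.5% lower as deposited. After median ratio scaling 13.8% were called higher and 14.2% lower, and with the length trend removed 9.51% of 10552 genes were called higher and 11.6% lower. Counts for each list below are to be read beside these shares. The 15 endothelial markers summed to 37.7 to 71.1 FPKM with ONX-0914, against 214 to 223 FPKM with vehicle, and all 13 that were tested were called lower. The 15 stellate and fibroblast markers summed to 104 to 236 FPKM with ONX-0914, against 397 to 472 FPKM with vehicle, and 10 of 15 were called lower. The 15 macrophage markers summed to 829 to 1221 FPKM with ONX-0914, against 1625 to 2463 FPKM with vehicle, and 11 of 15 were called lower. With median ratio scaling 10, 6 and 4 genes of these 3 lists were called lower, and with the length trend removed 10, 4 and 7. In each case the median log2 fold change was below 0, at -1.11, -0.62 and -0.49 after median ratio scaling. Some had to be lower, since 3 endothelial, 2 stellate and 1 macrophage marker passed the filter only through vehicle libraries. The part of these shifts in the keratin values was not tested.

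Markers of 2 other epithelia that make Krt8 and Krt18 were mostly at or near 0. Of 9 mesothelial markers, 8 stayed below 1 FPKM in all libraries and 3 were at 0 in all, Upk3b among them, and the list summed to 0.09 to 0.49 FPKM with ONX-0914, against 1.30 to 1.58 FPKM with vehicle. Of 14 pancreatic acinar markers, 11 were at 0 in all libraries. The single one tested, the elastase Cela2a, had 8.53, 4.78 and 10.0 FPKM in ONX-0914 1, 3 and 4, against 6.30, 5.52 and 3.44 FPKM in vehicle 1, 2 and 4. These groups overlap, and Cela2a was not called as deposited but was called higher with median ratio scaling (limma adjusted p = 0.0447). All 20 hepatocyte markers were tested, 2 were called higher and 6 lower, with a median log2 fold change of -0.22. With median ratio scaling 5 were called higher and 0 lower, and with the length trend removed 4 were called higher and 0 lower. Fgb, a fibrinogen chain, had 6179 to 10016 FPKM with ONX-0914 and 3315 to 3978 FPKM with vehicle. Its log2 fold change was 1.17, and it was called higher on the 3 scales. Ttr, transthyretin, had 22303 to 36129 FPKM with ONX-0914 and 21577 to 24166 FPKM with vehicle, and was not called. Alb, albumin, had 17654 to 36265 FPKM with ONX-0914 and 44524 to 47971 FPKM with vehicle, and was not called either. Its log2 fold change was -0.76 as deposited and 0.04 after median ratio scaling. Cps1 and Tdo2 were called lower as deposited, with log2 fold changes of -1.66 and -1.45, but not on the other 2 scales. Hnf4a, a transcription factor of hepatocytes, had 6.26, 40.7 and 5.94 FPKM in ONX-0914 1, 3 and 4, against 58.5, 51.7 and 68.6 FPKM in vehicle 1, 2 and 4, and was called lower as deposited but not on the other 2 scales.

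The wider biliary list of 23 genes, 5 of them described above, gave 13 tested genes, of which 1 was called higher and 3 lower, beside 2.56% and 43.5% of all tested genes. Sox9 is one of the 3 and passed the filter only through vehicle. The list's median was -0.22 on the log2 scale beside -0.64 over all tested genes, and 0.30 after median ratio scaling. Cldn7, a claudin of tight junctions, was the one called higher. It had 1.56, 2.21 and 2.10 FPKM in ONX-0914 1, 3 and 4, against 0, 0.99 and 1.03 FPKM in vehicle 1, 2 and 4 (log2 fold change 0.89 ± 0.29 SE in limma, adjusted p = 0.0332). The ONX-0914 libraries of Cldn7 were enough for it to pass the filter, and vehicle 4 was its only vehicle library above 1 FPKM. The filter thus favoured a higher value with ONX-0914 for this gene. Pkd2, the gene of polycystin 2 in cilia, changed by -1.25 ± 0.30 SE on the log2 scale (adjusted p = 0.0109 in limma). With median ratio scaling the list gave 3 genes called higher and 0 lower, and with the length trend removed again 3 higher and 0 lower, and Pkd2 was not called on those scales. Cldn7 was called higher on both, but no gene of the list was called higher with pseudocount 0.1, without the filter, without ONX-0914 1, without ONX-0914 4, without vehicle 1 or for ONX-0914 3 alone.

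The most abundant genes of that list were Tm4sf4 and Spp1, and whole-liver RNA does not show which cells they came from. Tm4sf4, a tetraspanin-like membrane protein, had 246, 180 and 216 FPKM in ONX-0914 1, 3 and 4, against 132, 145 and 167 FPKM in vehicle 1, 2 and 4. Its groups do not overlap, and its log2 fold change of 0.53 (SE 0.20) had a limma adjusted p of 0.0556 as deposited, 0.0171 with median ratio scaling and 0.0235 with the length trend removed. Spp1, osteopontin, had 119, 67.6 and 89.9 FPKM in ONX-0914 1, 3 and 4, against 66.2, 67.8 and 72.6 FPKM in vehicle 1, 2 and 4. Its groups overlap, and it was not called as deposited (limma adjusted p = 0.203). It was called higher after median ratio scaling (log2 fold change 1.17, limma adjusted p = 0.0305) and without ONX-0914 3 (limma adjusted p = 0.0191), but not with the length trend removed (limma adjusted p = 0.0636). These 2 genes carried most of the list's summed level of 270 to 383 FPKM with ONX-0914 and 227 to 277 FPKM with vehicle.

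Of 12 genes for keratin partners and plakins, which anchor keratin filaments, 8 were tested, 0 were called higher and 3 lower. These counts are close to the shares of all tested genes, 2.56% and 43.5%. Pkp4, a plakophilin-family protein of cell junctions, had 3.64, 6.89 and 4.58 FPKM in ONX-0914 1, 3 and 4, against 16.6, 15.3 and 14.1 FPKM in vehicle 1, 2 and 4 (log2 fold change -1.47 ± 0.27 SE in limma, adjusted p = 0.004). Dsp, desmoplakin, which ties keratins to desmosomes, changed by -1.23 ± 0.28 SE on the log2 scale (adjusted p = 0.0085 in limma). Jup, plakoglobin, changed by -0.80 ± 0.28 SE (adjusted p = 0.045 in limma). Pkp4 was also called lower with median ratio scaling and no gene of the list was with the length trend removed. The median log2 fold change of the 8 was -0.46, above the -0.64 of all tested genes.

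Among 16 genes of Mallory-Denk bodies and keratin stress, 15 were tested, 2 were called higher and 3 lower, beside 2.56% and 43.5% of all tested genes, with a median log2 fold change of -0.11. Hspa8, the constitutive HSP70 chaperone, had 999, 1426 and 816 FPKM in ONX-0914 1, 3 and 4, against 405, 441 and 542 FPKM in vehicle 1, 2 and 4 (log2 fold change 1.19 ± 0.24 SE in limma, adjusted p = 0.0056). The groups do not overlap, and unlike Krt8 it was highest in ONX-0914 3. Ubb, a polyubiquitin gene named after its values were seen, had a log2 fold change of 0.85 (limma adjusted p = 0.0084), and its repeated sequence makes its count uncertain. Both were called higher also with median ratio scaling and with the length trend removed. Sqstm1, the gene of p62, had 128, 253 and 167 FPKM in ONX-0914 1, 3 and 4, against 243, 174 and 178 FPKM in vehicle 1, 2 and 4, with overlapping groups and no call (limma adjusted p = 0.634). Ywhae and Ywhaz, 14-3-3 proteins of the family that binds keratin 18, had log2 fold changes of -1.86 and -1.68 (limma adjusted p = 0.0122 and 0.012), and Dnajb6, a co-chaperone, had one of -1.08 (limma adjusted p = 0.02). These 3 were not called on the other 2 scales.

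Of 31 other cytoskeleton genes, 30 were tested, 3 were called higher and 15 lower, with a median log2 fold change of -0.72. The lower count is close to the 43.5% of all tested genes, and the higher count is above the 2.56%. With median ratio scaling 7 were called higher and 4 lower, beside 13.8% and 14.2% of all tested genes. With the length trend removed 6 were called higher and 6 lower, beside 9.51% and 11.6%. The 3 called higher were the tubulins Tubb4b (log2 fold change 1.27), Tuba1c (1.08) and Tubb6 (0.84), named after their values were seen. All 3 were called higher on both other scales, and tubulin genes are alike enough for reads to be shared. The tubulin Tuba1a was called lower as deposited (-0.93), and Tuba1b, Tuba4a, Tubb2a and Tubb5 were not called. Rdx, radixin, which links actin to the membrane, had 2.03, 8.30 and 3.57 FPKM in ONX-0914 1, 3 and 4, against 41.0, 40.7 and 47.8 FPKM in vehicle 1, 2 and 4 (log2 fold change -3.12 ± 0.38 SE in limma, adjusted p = 0.0014). The next largest falls in the list had log2 fold changes of -2.75 for Tpm3 (tropomyosin), -2.70 for Actg1 (cytoplasmic actin) and -2.50 for Msn (moesin). These 4 were called lower on the 3 scales. Myl6, a myosin light chain, was the most abundant gene not called as deposited (log2 fold change 0.75, limma adjusted p = 0.0505), and was called higher on the other 2 scales.

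Epithelial junction genes that were called were all lower as deposited. Of 27 genes, 3 of them also keratin partners, 26 were tested, 0 were called higher and 19 lower, beside 2.56% and 43.5% of all tested genes. The median log2 fold change was -1.24 beside -0.64 over all tested genes. Cldn1, a claudin of tight junctions, had 4.69, 5.88 and 5.85 FPKM in ONX-0914 1, 3 and 4, against 44.6, 33.3 and 35.4 FPKM in vehicle 1, 2 and 4 (log2 fold change -2.58 ± 0.23 SE in limma, adjusted p = 0.00084). Dsg2, the desmosomal cadherin, had a log2 fold change of -2.57 and the claudins Cldn12 and Cldn2 had ones of -2.51 and -2.27. Gjb1, the main liver connexin, had 539, 518 and 635 FPKM in ONX-0914 1, 3 and 4, against 645, 620 and 689 FPKM in vehicle 1, 2 and 4, and was not called (limma adjusted p = 0.352). With median ratio scaling 1 gene was called higher and 10 lower, and with the length trend removed 0 higher and 6 lower, Cldn1, Dsg2, Cldn12 and Cldn2 among them.

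The Notch and YAP genes around Sox9 gave 16 tested of 29, of which 0 were called higher and 12 lower, beside 2.56% and 43.5% of all tested genes, with a median log2 fold change of -1.05. Of the 16, 5 passed the filter only through vehicle libraries, so these had to be lower. Yap1, the transcription co-activator, had 1.88, 8.29 and 2.60 FPKM in ONX-0914 1, 3 and 4, against 12.4, 11.5 and 12.1 FPKM in vehicle 1, 2 and 4 (log2 fold change -1.50 ± 0.41 SE in limma, adjusted p = 0.0169). Hes1, a Notch target, had a log2 fold change of -0.37 and was not called (limma adjusted p = 0.241). Dll4, a Notch ligand of endothelium, had a log2 fold change of -1.46. It had 0.32, 0.42 and 0 FPKM in ONX-0914 1, 3 and 4, against 2.46, 2.36 and 2.35 FPKM in vehicle 1, 2 and 4, so it is one of the 5 that had to be lower. With median ratio scaling 2 of the 16 genes were called lower and with the length trend removed 1, beside 14.2% and 11.6% of tested genes. The 2 were Dll4 and Rbpj and the 1 was Dll4, and both genes passed the filter only through vehicle libraries. Yap1 was not called on either scale (limma adjusted p = 0.0936 and 0.145).

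**Figure D3:**
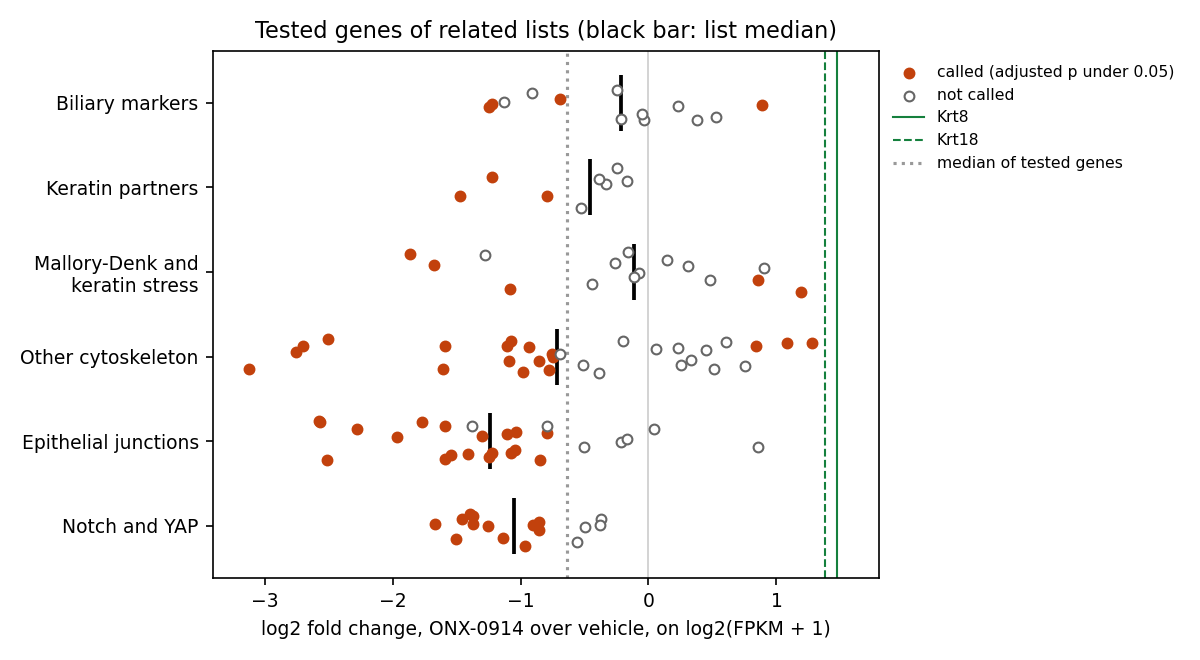
Log2 fold change, ONX-0914 over vehicle, of each tested gene in 6 lists, filled where called, with a black bar at the list median, green lines at Krt8 and Krt18 and a dotted line at the median of all tested genes. Every listed gene lies below Krt8 and Krt18, and the medians run from -1.24 for epithelial junctions to -0.11 for the keratin stress genes.

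The fold change of a gene varied with the length of its transcript. With tested genes in 4 equal bins by length, the shortest, of 48 to 1841 bases, had a median log2 fold change of -0.16. The next, of 1842 to 2893 bases, had one of -0.59, and the longer bins had ones of -0.80 and -0.88. Krt18, with 1437 bases, falls in the shortest bin and Krt8, with 1958 bases, in the next. Both lay above the median of their bin, and with the length trend removed their log2 fold changes were 1.97 for Krt8 and 1.66 for Krt18. The length taken for Krt7 is uncertain, so its value without the trend is too. Sox9, with 4135 bases, is in a longer bin, and its direction turned when the trend was removed. The part of transcript length in the values as deposited was not tested otherwise.

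Genes whose profile over the 6 libraries lay nearest to that of Krt8 were found by the root mean square difference of log2(FPKM + 1) values, each gene centred on its own mean, among 10742 genes. The nearest were Ces2a (a carboxylesterase) at 0.133, Mvp (the major vault protein) at 0.135, Fetub (fetuin B) at 0.141, Flywch2 at 0.176 and Ccdc167 at 0.195. Ces2a had 510, 220 and 347 FPKM in ONX-0914 1, 3 and 4, against 115, 124 and 105 FPKM in vehicle 1, 2 and 4. Krt18 was 8th, at 0.225. Krt23, Krt19, Epcam and Sox9 took the places 1601, 1758, 2675 and 5386. The measure is a description over 6 libraries that share the treatment and the library that stands apart.

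**Figure D4:**
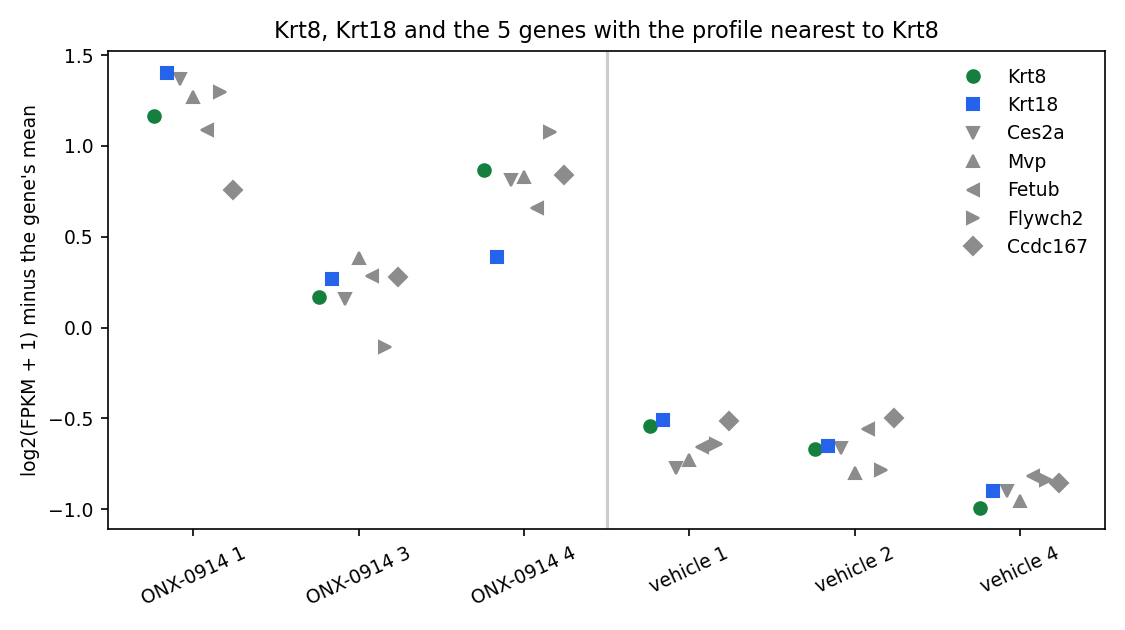
Centred log2(FPKM + 1) of Krt8, Krt18 and the 5 genes nearest to Krt8 in each library, ONX-0914 libraries left of vehicle libraries. All 7 genes lie below 0 in the vehicle libraries, and apart from Flywch2 in ONX-0914 3 all lie above 0 in the treated libraries.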

How the data were processed

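Liver RNA from 3 ONX-0914 and 3 vehicle libraries was measured by sequencing. Per the labels' protocols, TRIzol was used to extract RNA, from which mRNA was enriched and read in pairs of 150 bases. Per the submitters' processing notes, the tools were HISAT2 2.0.1, cutadapt 1.11, FastQC 0.11.5, edgeR and featureCounts 1.6.0, with the builds GRCm38 and mm10. What each did, the annotation and the scaling are not given in the sources used here.

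Values in the deposited table are FPKM made by the authors, with the unit read from the values, which shrink with transcript length and are not whole. Read totals are not part of the table. The smallest FPKM times kilobases, taken as 1 read, gave an estimated 12.8 to 15.1 M reads per ONX-0914 library and 14.9 to 18.8 M reads per vehicle library. FPKM summed to 1041391 to 1247789 per ONX-0914 library and 993264 to 1074027 per vehicle library. Intervals from these estimates would cover counting error only and none are given.

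Genes above 1 FPKM in at least 3 libraries (10743) were tested on log2(FPKM + 1) with limma 3.58.1 (R 4.3.3), allowing the variance to follow the mean level and using no block. A call is a Benjamini-Hochberg adjusted p under 0.05 over all of them. Because 1 is added, fold changes of genes with low values come out too small. The length trend was a lowess, per library, of the difference from the vehicle mean against the length of the longest coding transcript in GENCODE M21 (span 0.3), which also centres each library. The fit was tested on simulated data. Promoters came from RefSeq.

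The 7 genes and all gene lists were chosen with earlier results of these data known. Beside the 7 genes, the rule for named genes took other keratins above 1 FPKM, up to 4 called genes with the largest change and up to 2 abundant uncalled genes per list, and the 5 genes nearest in profile to Krt8. Not all genes it selects are printed, and some are not reported here. Alternatives were another pseudocount, no filter, 2 scalings, length-trend removal, leaving out each library, a replicate block and, added after the data were seen, ONX-0914 3 alone.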

Additional observations from a re-analysis of the deposited data

How the results depend on the processing

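Krt8 and Krt18 had positive log2 fold changes in each of the 13 alternatives, a description of genes chosen for this contrast. The log2 fold change of Krt8, 1.47 as reported, was 2.27 with median ratio scaling, 2.08 with upper quartile scaling, 1.97 with the length trend removed and 0.91 for ONX-0914 3 alone against vehicle, and 1.25 to 1.75 when 1 library was left out. That of Krt18, 1.38, was 2.17 and 1.98 with the scalings, and 1.02 to 1.59 when 1 library was left out. The group difference in the ratio of Krt8 to Krt18, 0.0869 as reported, was 0.257 with the length trend removed. It was -0.0734 (without ONX-0914 4) to 0.188 (without ONX-0914 1) when 1 library was left out. The contrast of the pair with the biliary genes, 1.65, was 2.04 with median ratio scaling, 1.44 with the length trend removed and 1.18 for ONX-0914 3 alone. It was 1.42 to 1.88 when 1 library was left out. The value of 1.44 includes Krt7, whose length is uncertain. The log2 fold change of Sox9, -0.69 as reported, was -1.29 with pseudocount 0.1, where that of Krt18 was 1.38. Sox9 turned direction with the length trend removed, at 0.19. The cause was not tested.

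Biliary markers called higher, 1 as reported, numbered 3 with median ratio scaling, upper quartile scaling or the length trend removed, 2 with the replicate block, 0 with pseudocount 0.1, without the filter or for ONX-0914 3 alone, and 0 to 3 when 1 library was left out. Those called lower, 3, numbered 0 with median ratio scaling or the length trend removed and 1 for ONX-0914 3 alone, and 2 to 4 when 1 library was left out. Of all genes, 275 were called higher as reported, 1481 with median ratio scaling, 1074 with upper quartile scaling, 1004 with the length trend removed, 604 with the replicate block, and 92 (without vehicle 1) to 740 (without ONX-0914 3) when 1 library was left out. The genes called lower, 4673, numbered 1528, 1956 and 1219 with the scalings and the trend removed, 2992 for ONX-0914 3 alone, and 2590 to 6514 when 1 library was left out. Where 1 library of a group was left, it is assumed to vary like the other group. Of the other counts by list and setting, 190 were equal to the reported count or within 1.5 times it, and 70 were not. The 190 include many counts of 0 beside a reported 0, such as those of endothelial markers called higher. They are thus no measure of how stable the lists are.

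Numbers 1 and 4 occur in both groups, and no label says what they share. The deviations of same-numbered libraries correlated at 0.001 and 0.133, so the replicate block, under which Krt8 was 1.78 and Krt18 1.60, pairs by number only. Krt7, Krt19 and Krt23 have low levels, at which their values do not tell a small difference from none.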
